A study of Homo sapiens with 16 samples.

Results

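The S100 family of small calcium-binding proteins was followed in MUTZ-3 cells, a human acute myeloid leukaemia (AML) line with inv(3), a rearrangement that places the oncogene EVI1 (listed as MECOM) under a foreign enhancer. The members were 8 genes chosen by symbol, S100A4, S100A6, S100A8, S100A9, S100A10, S100A11, S100A12 and S100P, out of 60623 genes listed, and 13 other S100 genes were kept for comparison. The PARPi time course held 10 libraries. They were 1 of untreated cells (0 h) and 3 each, at 12, 24 and 48 h, of cells with the vehicle DMSO, with olaparib (10 µM) and with talazoparib (1 µM). The knockdown held 6 libraries of cells transduced with a lentiviral non-targeting control (NTC, SHC002), shEVI1-2531 or shEVI1-2532, selected with puromycin and taken at day 3 or day 6. All cells were the same line, grown with GM-CSF and medium conditioned by a bladder carcinoma line. Every condition had a single library and thus no replicate, and the experiments have separate controls.

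S100 proteins carry a pair of EF hands, helix-loop-helix motifs that bind calcium, and most work as dimers that change shape on binding it and then grip a target protein. S100A8 and S100A9 form calprotectin, a major cytosolic protein of neutrophils and monocytes that sequesters zinc and manganese and, once released, signals through TLR4 and AGER (the receptor RAGE). S100A12 is a related protein of the same cells, while S100A4, S100A6, S100A10, S100A11 and S100P are found in many cell types, where they bind myosin, annexins and other proteins of the cytoskeleton and the membrane.

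Of the 8 members, 7 lie on chromosome 1, in a stretch of GRCh38 that runs from S100A10 at position 151982915 to the end of S100A1 at 153632039 and that also holds genes of the skin barrier. The files list 90 genes in these 1649125 bases, of which 17 are S100 genes of the lists used here. None of the other 73 genes reached 1 CPM (counts scaled to a common library total) in any of the 16 libraries, and 52 had no count in any. S100A9, on the plus strand at 153357854-153361023, and S100A8, on the minus strand at 153390032-153391073, lie in 33220 bases together with S100A12 (minus strand, 153373711-153375621). The only further gene listed between S100A9 and S100A8, LAPTM4BP1, stayed at or below 0.0462 CPM. S100P lies apart, on the plus strand of chromosome 4 at 6693878-6697170. S100A4 shares part of its span and its strand with S100A3, which did not exceed 0.621 CPM.

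RefSeq promoter sequences were found for all 8 members. The 60 bases just before the annotated start are printed here because 6 members passed the tests of both the inhibitor slope and shEVI1-2532, all upward, and 2 passed neither. They are given 5′ to 3′ on the strand of the gene (build GRCh38.p14), with TATAAA, the core of a TATA box, in capitals where it occurs.
S100A8 (chr1:153391074-153391133, minus strand): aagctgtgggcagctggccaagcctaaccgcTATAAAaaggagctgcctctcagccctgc
S100A9 (chr1:153357794-153357853, plus strand): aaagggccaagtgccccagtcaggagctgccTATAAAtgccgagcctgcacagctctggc
S100A12 (chr1:153375622-153375681, minus strand): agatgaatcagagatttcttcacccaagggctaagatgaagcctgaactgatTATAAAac
S100A6 (chr1:153535992-153536051, minus strand): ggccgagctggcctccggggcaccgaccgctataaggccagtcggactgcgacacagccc
S100A11 (chr1:152037005-152037064, minus strand): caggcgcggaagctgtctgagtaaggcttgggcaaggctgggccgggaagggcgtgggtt
S100P (chr4:6693818-6693877, plus strand): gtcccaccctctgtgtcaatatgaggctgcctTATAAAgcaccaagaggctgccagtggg
S100A4 (chr1:153545807-153545866, minus strand): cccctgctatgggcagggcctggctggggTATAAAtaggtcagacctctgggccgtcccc
S100A10 (chr1:151993860-151993919, minus strand): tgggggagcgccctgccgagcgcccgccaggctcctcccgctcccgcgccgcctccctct

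TATAAA stood in this window in 5 of the 8 members, S100A8, S100A9, S100A12, S100P and S100A4, against 2.78% of 35116 RefSeq promoters. It began 29 bases before the start in both S100A8 and S100A9, 28 in S100P, 31 in S100A4 and 8 in S100A12. The other motifs were searched on both strands of the 300 bases from 250 before to 50 after the start. The PU.1 core GAGGAA was found in 3 members (S100A8, S100A9 and S100P) and in 27.9% of all promoters. The C/EBP letters TTNNGCAA were found in 2 members (S100A12 and S100A11) and in 10.5%, and the RUNX core TGTGGT in 2 (S100A9 and S100A11) and in 13.1%. The AP-1 letters TGANTCA were found in S100A12 alone among the members and in 7.71% of all promoters, and the GATA letters AGATAA in none and in 10.3%. The TATA letters do not follow that division, since S100A4 holds them and S100A6 and S100A11 do not. The starts used for S100A6, S100A4 and S100A11 lie 253, 4330 and 10903 bases from the 5′ end of the gene as the files give it, and for the other members at that end.

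In untreated and DMSO cells the family already spanned a wide range of levels. On a scale per length (CPM per kilobase of exon in GENCODE v29), S100A9 stood highest, at 768, 1044 and 982 in the DMSO libraries of 12, 24 and 48 h. S100A4 lay at 306, 305 and 368, S100A11 at 366.0, 299.7 and 285 and S100A8 at 190.1, 233 and 236. S100A4 and S100A11 therefore overlapped over the 3 DMSO libraries, while S100A8 lay below both. The place of S100A8 depends on the lengths used, 1006 exon bases for S100A8 and 680 for S100A11. By CPM S100A8 lay above S100A11 with DMSO at 24 and 48 h. S100A12 at 12.3 to 16.5, S100A6 at 11.2 to 13.4 and S100P at 9.17 to 17.4 overlapped with one another. S100A10 was lowest, at 1.96, 0.535 and 0.122. At 48 h of talazoparib the order per length was S100A9 (11970), S100A8 (3212), S100A11 (687), S100A4 (493), S100A12 (234), S100P (72.9), S100A6 (41.6) and S100A10 (0.197). The 8 members together took 0.142% of all counts with DMSO at 48 h, 0.772% with olaparib and 1.14% with talazoparib.

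Both PARP inhibitors were given to ask how expression changes over time when the PARP enzymes are blocked. The S100A8, S100A9 and S100A12 levels rose steeply from 12 to 48 h under either inhibitor, S100A6, S100A11 and S100P rose less, and S100A4 and S100A10 did not pass the test of a change with time. S100A8 stood at 178 CPM in untreated cells and at 191, 235 and 238 CPM with DMSO at 12, 24 and 48 h. With olaparib it stood at 253, 594 and 2118 CPM at these times, and with talazoparib at 238, 912 and 3232 CPM. Every inhibitor library lay above the DMSO library of its hour, and the gap widened at each step.

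S100A9, the partner of S100A8 in calprotectin, stood at 424 CPM untreated and at 443, 602 and 567 CPM with DMSO. The olaparib libraries held 597, 1348 and 4617 CPM of it and the talazoparib libraries 511, 1939 and 6907 CPM. At 48 h this was 8.15 times the DMSO level with olaparib (95% interval 8.06 to 8.24) and 12.2 times with talazoparib (12.1 to 12.3), intervals that cover counting error only. S100A12 was scarcer, with 4.62 CPM untreated and 6.35, 8.53 and 6.53 CPM with DMSO. It stood at 8.98, 23.1 and 75.7 CPM with olaparib and at 7.14, 31.3 and 121 CPM with talazoparib, of which the 12 h talazoparib value was not separated from DMSO by counting error. Its 48 h ratio to DMSO was the highest of the members with either inhibitor, 11.6 (10.5 to 12.8) with olaparib and 18.6 (16.8 to 20.5) with talazoparib. In bulk RNA, more cells of a type and more RNA per cell cannot be told apart.

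**Figure D1:**
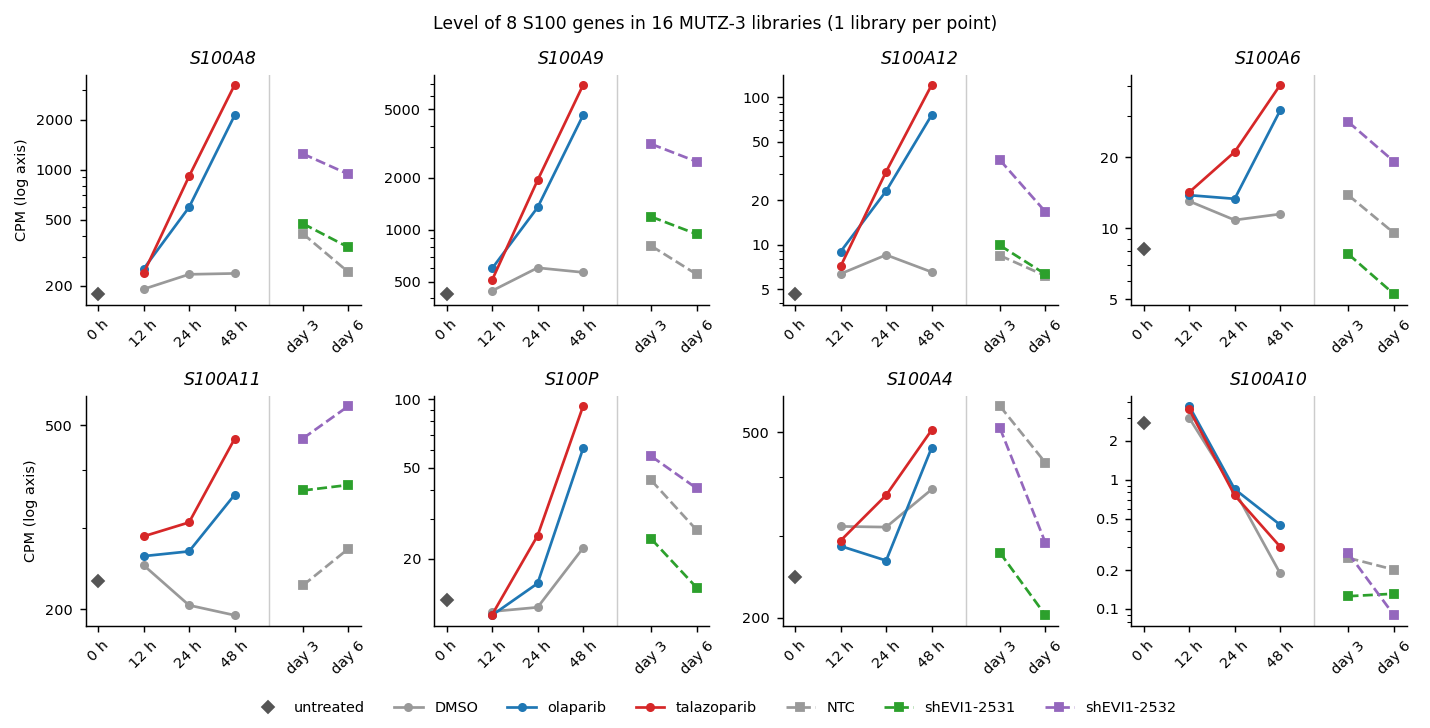
Level of each S100 member in each of the 16 libraries, in CPM on a log axis that differs between panels. The left side of each panel is the PARPi time course and the right side the knockdown, 1 point being 1 library. S100A8, S100A9 and S100A12 climb with both inhibitors while the DMSO line stays low, and S100A10 falls with time in all 3 lines.

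S100A6, also called calcyclin, stood at 13.03, 10.8 and 11.5 CPM with DMSO at 12, 24 and 48 h. With olaparib it was 13.8, 13.3 and 31.6 CPM and with talazoparib 14.2, 21.1 and 40.4 CPM. The 12 h libraries were not separated from DMSO by counting error, and at 48 h both inhibitors lay clearly above it. S100A11, which binds annexin A1, declined slightly in DMSO, from 249 to 204 and 194 CPM. It stood at 260.3, 267 and 353 CPM with olaparib and at 287, 308 and 467 CPM with talazoparib, so all 6 inhibitor libraries lay above their DMSO control. S100P, which binds the membrane linker ezrin, was level at 12 h, with 11.7 CPM in DMSO, 11.3 in olaparib and 11.4 in talazoparib. At 48 h it stood at 22.3 CPM in DMSO, 60.9 in olaparib and 93.3 in talazoparib.

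S100A4, a binding partner of non-muscle myosin, moved little. Its DMSO libraries held 314, 313 and 377 CPM, its olaparib libraries 285, 265 and 463 CPM and its talazoparib libraries 293, 367 and 505 CPM. Of the 6 inhibitor libraries, 3 lay below and 3 above the control of their hour. S100A10, which partners annexin A2 and is the family member that has lost calcium binding, fell with culture time in every arm. It had 196, 60 and 12 counts with DMSO at 12, 24 and 48 h, 235, 57 and 27 with olaparib and 252, 44 and 17 with talazoparib. At 48 h all 3 libraries were below 0.45 CPM, the untreated library having held 2.75 CPM, and the decline was not smaller in DMSO (3.02 to 0.188 CPM from 12 to 48 h) than with olaparib (3.73 to 0.448) or talazoparib (3.52 to 0.304).

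**Figure D2:**
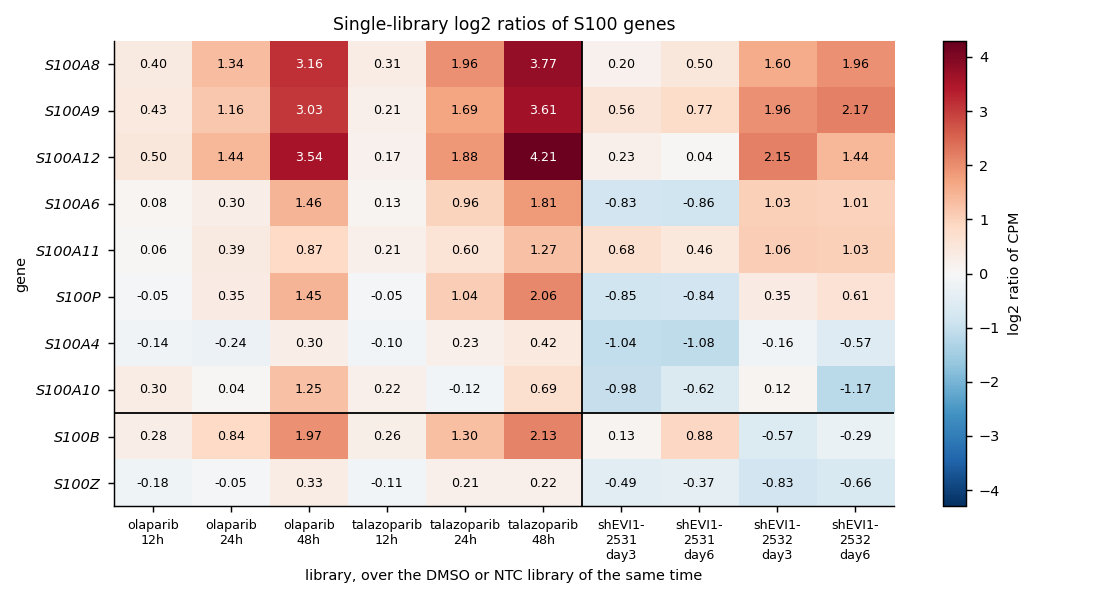
Log2 ratio of CPM in each inhibitor or shEVI1 library over the DMSO or NTC library of the same time, for the 8 S100 members and, below the line, S100B and S100Z. Columns are single libraries. The 48 h columns are red for S100A8, S100A9 and S100A12, up to 4.21, and shEVI1-2531 and shEVI1-2532 columns differ in colour for S100A6 and S100P.

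A model with the hour as a block and a slope of each inhibitor's effect on the log2 of hours was fitted over the 9 libraries of the time course with edgeR's quasi-likelihood test. The p-values are of both slopes tested jointly and carry no direction, so the direction given is that of the mean slope. Later slopes and counts of slopes were called in the same way. At an adjusted p under 0.05, 6 of the 8 members had a mean slope above 0, against 8.15% of the 17218 genes tested, and none had 1 below. The mean slope of both inhibitors, in log2 units per doubling of hours, was 1.88 ± 0.15 (SE) for S100A12 (adjusted p = 3.35e-34), 1.66 ± 0.14 for S100A8 (1.85e-29) and 1.61 ± 0.14 for S100A9 (2.63e-27). S100P rose by 1.01 ± 0.14 (2.51e-11), S100A6 by 0.87 ± 0.14 (9.26e-08) and S100A11 by 0.57 ± 0.13 (0.000593) per doubling. The slope of S100A4 was 0.35 ± 0.13 (0.129) and that of S100A10 0.29 ± 0.27 (0.746). The median slope was 0.94 over the members and -0.01 over all genes tested. In each of the 6 members that passed, the talazoparib slope was above the olaparib slope, as with 1.85 against 1.46 for S100A8 and 2.15 against 1.61 for S100A12, a difference that was not tested. This model left 2 residual degrees of freedom and borrowed its error from all genes, so the very small p-values rest on that shared error.

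Averaged over the 3 times, the effects were large but uneven, and none of the 8 members passed the edgeR test of the mean effect of both inhibitors, in which 3.16% of genes were called higher. The mean log2 fold change was 1.80 ± 0.62 (SE) for S100A12 (adjusted p = 0.0863), 1.69 ± 0.54 for S100A8 (0.0764) and 1.56 ± 0.53 for S100A9 (0.0837). Unadjusted p-values lay under 0.05 for 6 members, the same 6 whose slopes passed, and for 6047 of the 17218 genes in either direction. DESeq2 called 4 of the 8 members higher against 10.7% of genes, and limma voom 1 of the 8 against 7.75%, a share near that of all genes. All 6 were called without the 12 h time point, where 12.4% of genes were called higher, without the DMSO library of 12 h (14.8%) or without the talazoparib library of 12 h (10.6%), so that the calls over all genes rose together with those of the members. With DMSO at 12 h left out, S100A8 reached 2.55 (adjusted p = 0.00887). No member passed for olaparib (0.639% of genes called higher, with unadjusted p under 0.05 for 3 members) or for talazoparib (3% of genes, 6 members). For talazoparib DESeq2 called 4 members against 11.4% of genes and limma voom 1 against 8.01%, and for olaparib neither called any, against 3.39% and 0.633%.

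Olaparib and talazoparib were compared at doses that differ, 10 µM and 1 µM. At 24 and 48 h the talazoparib libraries held more S100A8, S100A9, S100A12, S100A6, S100A11, S100P and S100A4 than the olaparib libraries, while at 12 h S100A8, S100A9 and S100A12 were lower with talazoparib. The edgeR test of talazoparib minus olaparib called no gene of the 17218, with 354 genes and none of the members at an unadjusted p under 0.05, and it called no member by DESeq2 or limma voom. The difference for S100A8 was 0.51 on the log2 scale with a 95% interval from -0.76 to 1.77, and for S100P 0.53 (-0.30 to 1.36). These intervals hold changes of more than 1 log2 unit in either member, so the test does not show that the inhibitors act alike. The narrowest was that of S100A4, at 0.25 (-0.14 to 0.65).

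The knockdown asked what follows when EVI1 itself is lowered, and the shRNAs differed in how far they lowered it. EVI1 stood at 42.4 and 44.2 CPM in NTC at day 3 and day 6, at 12.3 and 18.5 CPM with shEVI1-2531 and at 4.51 and 4.03 CPM with shEVI1-2532. Its log2 fold change was -1.34 ± 0.19 (SE, adjusted p = 0.000644) with shEVI1-2531 and -3.04 ± 0.21 (7.95e-07) with shEVI1-2532. In the PARPi time course EVI1 stood at 63.6 CPM with DMSO at 48 h, its highest level of all 16 libraries, 21.0 with olaparib and 8.54 with talazoparib. The earlier log2 ratios to DMSO were smaller, -0.15 with olaparib and -0.13 with talazoparib at 12 h, and -0.32 and -0.70 at 24 h. Its mean slope of -0.94 was called below 0 by edgeR, and its mean effect of -0.92 was not called.

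With shEVI1-2532, 6 of the 8 members were higher than in NTC and none was lower by edgeR's quasi-likelihood test, in which 21.2% of 18606 genes were called higher. The members that rose were again S100A8, S100A9, S100A12, S100A6, S100A11 and S100P. S100A9 stood at 805 and 551 CPM in NTC at day 3 and day 6 and at 3138 and 2481 CPM with shEVI1-2532, a log2 fold change of 2.37 ± 0.14 (adjusted p = 2.88e-07). S100A8 stood at 412 and 242 CPM in NTC and at 1246 and 940.0 CPM with shEVI1-2532 (2.08 ± 0.14, 8.89e-07). S100A12 stood at 8.45 and 6.15 CPM in NTC and at 37.5 and 16.7 CPM (2.11 ± 0.20, 6.68e-06). For all 3 genes both shEVI1-2532 libraries lay above both NTC libraries.

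S100A11 (225 and 270.1 CPM in NTC, 468 and 549.9 with shEVI1-2532) rose by 1.34 ± 0.13 (adjusted p = 9.18e-06) and S100A6 (13.8 and 9.55, then 28.1 and 19.2 CPM) by 1.32 ± 0.17 (6.88e-05). S100P rose least, by 0.78 ± 0.16 (0.00211), from 44.0 and 26.6 CPM to 56.2 and 40.6 CPM, so that its day 6 library with shEVI1-2532 lay below its day 3 NTC library. Without the shEVI1-2532 library of day 6 S100P did not pass (0.62, adjusted p = 0.0547). S100A4 (569 and 430.0 CPM in NTC, 510.2 and 289.6 with shEVI1-2532) had a log2 fold change of -0.06 ± 0.13, with a 95% interval from -0.35 to 0.23. S100A10 had only 9 to 30 counts in each knockdown library and gave -0.11 ± 0.54. The median log2 fold change was 1.33 over the members and 0.00 over all genes tested.

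With shEVI1-2531 the members divided. S100A11, S100A9 and S100A8 were higher than in NTC, 3 of 8 against 9.49% of genes, and S100A4, S100A6 and S100P were lower, 3 of 8 against 7.9% of genes. S100A9 stood at 1189 and 943 CPM (0.84 ± 0.13, adjusted p = 0.00118), S100A11 at 361 and 371 CPM (0.74 ± 0.13, 0.00213) and S100A8 at 474 and 341 CPM (0.51 ± 0.14, 0.0245). S100A4 stood at 276 and 203 CPM, below both NTC libraries, and fell by 0.90 ± 0.13 on the log2 scale (0.000761). S100P at 24.4 and 14.9 CPM fell by 0.68 ± 0.16 (0.0129) and S100A6 at 7.77 and 5.27 CPM fell by 0.67 ± 0.17 (0.0163). S100A12, at 9.89 and 6.31 CPM, had a log2 fold change of 0.30 ± 0.19 (0.32), and S100A10 -0.61 ± 0.55 (0.498). S100A6 lost its call without any 1 of the 4 NTC and shEVI1-2531 libraries (adjusted p from 0.0522 to 0.0615), S100P without NTC of day 3 (0.0844), and S100A8 without shEVI1-2531 of day 3 (0.0723) or NTC of day 6 (0.226).

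The difference between the shRNAs was tested directly. All members but S100A10 were higher with shEVI1-2532 than with shEVI1-2531, 7 of 8 against 12.2% of genes, and none was lower. The difference was largest for S100A6, at 1.99 ± 0.17 on the log2 scale (edgeR, adjusted p = 2.29e-05), followed by S100A12 at 1.81 ± 0.19 (8.17e-05), S100A8 at 1.56 ± 0.14 (2.98e-05), S100A9 at 1.53 ± 0.13 (2.46e-05) and S100P at 1.46 ± 0.16 (0.000105). It was 0.84 ± 0.13 for S100A4 (0.000876) and 0.60 ± 0.13 for S100A11 (0.00555), the latter not passing without the shEVI1-2531 library of day 6 (0.44, adjusted p = 0.0938). Both shRNA effects share the NTC libraries. S100A6 and S100P thus rose with 1 shRNA and fell with the other, while S100A8, S100A9 and S100A11 rose with either, to different extents.

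**Figure D3:**
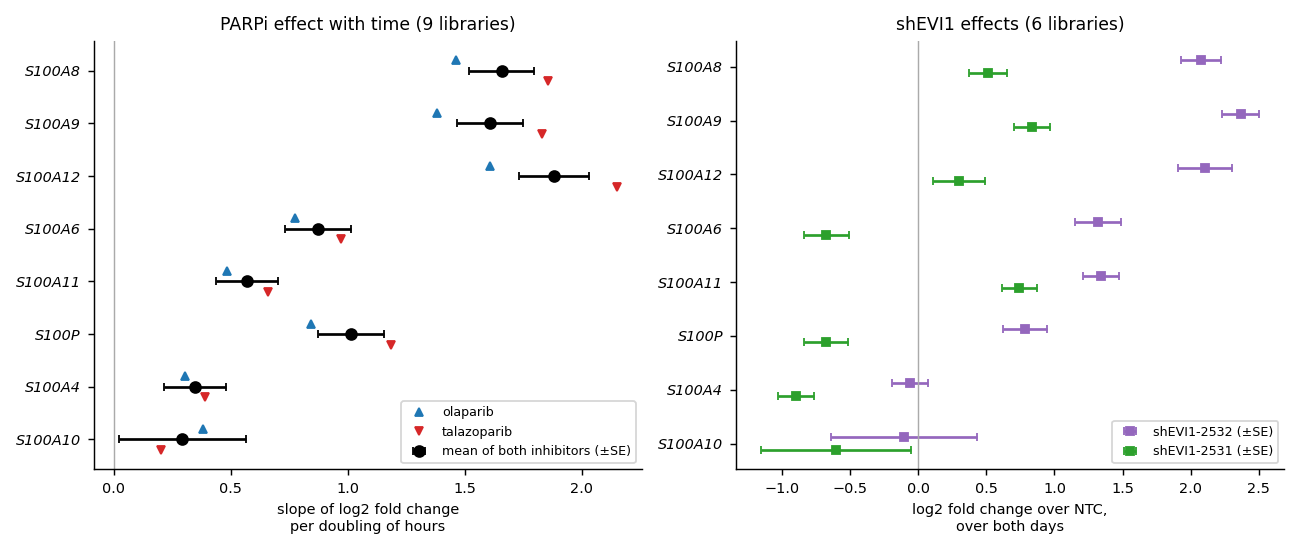
Left, slope of the inhibitor effect on the log2 of hours for each S100 member (black, mean of both inhibitors ± SE over 9 libraries; coloured triangles, each inhibitor). Right, log2 fold change over NTC with each shEVI1 shRNA ± SE over 6 libraries. The shEVI1-2532 points lie to the right of the shEVI1-2531 points for every member, and for S100A6 and S100P they lie on opposite sides of 0.

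CPM depend on the library total, and the scaling used in the tests (TMM) differs from it in several libraries. By library totals, the median log2 ratio over 14149 genes with at least 10 counts in every library was -0.20 for olaparib and -0.28 for talazoparib at 48 h, -0.17 and -0.12 for shEVI1-2531 at day 3 and day 6, and -0.26 and -0.30 for shEVI1-2532. Changes relative to the other genes are therefore somewhat higher than ratios of CPM. S100A4 with shEVI1-2532 at day 3 is the member ratio that changed sign with the scaling, from -0.16 by CPM to 0.10 after TMM. By CPM it was -0.57 at day 6, and after TMM -0.22.

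The calprotectin genes kept a narrow ratio to each other throughout. Counts of S100A8 were 0.390 to 0.471 of those of S100A9 over the 10 PARPi libraries and 0.362 to 0.512 over the 6 knockdown libraries. With the inhibitors at 24 and 48 h the ratio was 0.441 to 0.471, above the 0.390 and 0.419 of DMSO at these times. At 12 h olaparib (0.424) lay below DMSO (0.432) and talazoparib (0.465) above it. With the shEVI1 shRNAs it was 0.362 to 0.398, below the 0.512 and 0.440 of NTC. S100A12 counts were 0.00669 to 0.0175 of those of S100A9.

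**Figure D4:**
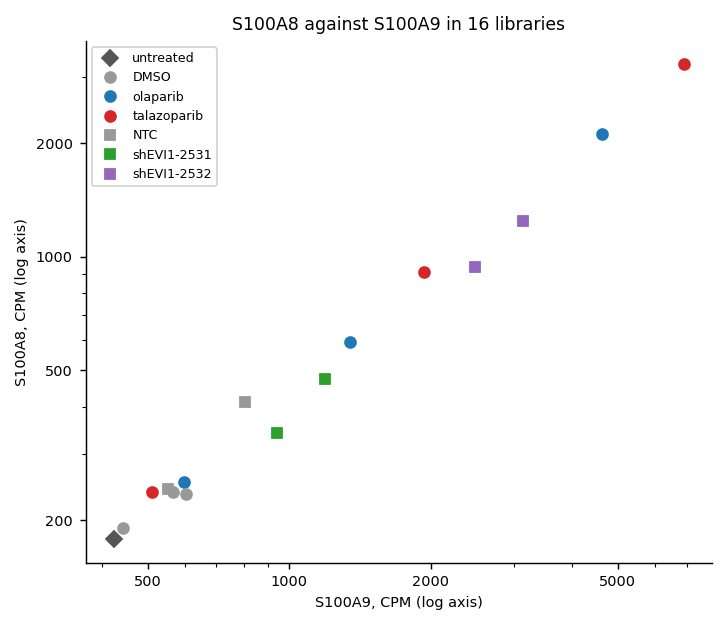
S100A8 against S100A9 in CPM, both on log axes, 1 point for each of the 16 libraries. The points fall close to 1 line, from the untreated library at 424 and 178 CPM to talazoparib at 48 h at 6907 and 3232 CPM.

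Likeness of pattern was measured as the Pearson correlation, over the 16 libraries, of log2(CPM + 1) centred within each experiment, against 12026 genes with a mean of at least 1 CPM in both experiments. The points share a few treatments and controls, so the values only describe the pattern. S100A8 and S100A9 correlated at 0.995, S100A8 and S100A12 at 0.990 and S100A9 and S100A12 at 0.983. Outside the members, LST1, RIT1 and AL590226.2 were the 3 genes most like each of these (LST1 at 0.988 with S100A8, 0.990 with S100A9 and 0.974 with S100A12). S100A11 was most like ACVR1 (0.980), LRP1 (0.979) and CAPG (0.976), and S100P most like GMFG (0.975), IDNK (0.968) and C12orf57 (0.961). S100A6 was most like CLIC1 (0.934), PROCR (0.934) and REEP5 (0.919), S100A4 most like COX17 (0.915), CTSH (0.908) and ARL6IP5 (0.903), and S100A10 most like HRAS (0.886), CRIP2 (0.867) and FOSL1 (0.855). S100A10 correlated negatively with every other member, from -0.622 with S100P to -0.193 with S100A11. It was itself scarce, with a median of 0.376 CPM and a maximum of 3.73 CPM. Its correlations therefore rest mostly on the untreated and 12 h libraries, where it was highest. S100A4 and S100A11, at like levels per length in DMSO cells, correlated at 0.061.

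Of the 13 other S100 genes, 8 had enough counts for the tests in each experiment and only S100B and S100Z exceeded 1.5 CPM. S100B, best known from glia and dendritic cells, stood at 127, 144 and 190.1 CPM with DMSO, 153, 258 and 746 CPM with olaparib and 152, 353 and 829.8 CPM with talazoparib. Its slope was 1.00 ± 0.13 (edgeR, adjusted p = 4.26e-11), near that of S100P. In the knockdown the order of the shRNAs was the reverse of that in the members. S100B rose with shEVI1-2531 (0.67 ± 0.16, adjusted p = 0.0147; 359 and 319 CPM against 328 and 173 in NTC), and it was lower with shEVI1-2532 than with shEVI1-2531 by 0.82 ± 0.16 on the log2 scale (0.00379; 221 and 142 CPM). S100Z lay between 14.5 and 34.3 CPM in all libraries and fell by 0.44 ± 0.16 with shEVI1-2532 (0.0483). S100A1, S100A2, S100A3, S100A5, S100A13 and S100A16 lay between 0.0099 and 1.49 CPM. S100A16 and S100A1 were lower with either shRNA, with fitted log2 fold changes of -5.38 and -1.38 with shEVI1-2532. S100A16 had only 1 count in each shEVI1-2532 library, so the size of its change is loosely fixed. The 95% intervals of its log2 ratios, from counting error, were -7.73 to -1.99 at day 3 and -9.40 to -3.71 at day 6. S100A5 was lower with shEVI1-2531 (-1.17) and higher with shEVI1-2532 (1.10), and its difference between the shRNAs was 2.27 ± 0.37 (0.00102). S100A7, S100A7A and S100A14 had at most 2 counts in a library, and S100A7L2 and S100G had none in any library (3 counts would be 0.0249 to 0.0536 CPM).

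Most receptors reported for released S100 proteins rose with time under the inhibitors, relative to DMSO, and were higher with either shRNA. Of 10, 7 had a slope above 0 with the inhibitors and none below, 9 were higher and 1 was lower with shEVI1-2532, and 7 were higher and 1 was lower with shEVI1-2531. Over all genes, which are also the background for the lists that follow, 8.15% of slopes were above and 8.31% below 0, 21.2% of genes were higher and 19.9% lower with shEVI1-2532, and 9.49% were higher and 7.9% lower with shEVI1-2531. CD14, a coreceptor of TLR4, stood at 2.86 CPM with DMSO at 48 h, 58.3 with olaparib and 82.2 with talazoparib, and at 10.4 and 23.8 CPM with shEVI1-2532 against 0.456 and 0.687 in NTC (log2 fold change 5.14 ± 0.25, adjusted p = 1.29e-07). LY96, the TLR4 partner that binds lipopolysaccharide, rose by 2.95 ± 0.28 with shEVI1-2532 (6.68e-06), the chemokine receptor CXCR2 by 2.08 ± 0.16 (1.78e-06) and the scavenger receptor CD36 by 1.79 ± 0.19 (1.9e-05). CXCR2 was the only one called higher in the talazoparib effect (1.34 ± 0.21, adjusted p = 0.031). With shEVI1-2531, LY96 (0.07 ± 0.28, adjusted p = 0.898) and TLR4 (0.40 ± 0.27, 0.34) did not pass. AGER was the receptor that fell, by 1.29 ± 0.23 with shEVI1-2532 (0.000767) and by 1.12 ± 0.23 with shEVI1-2531 (0.0051), and it stood between 2.04 and 6.71 CPM in all libraries.

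Of 17 proteins that bind S100 proteins, 16 were tested, PLG having no count in any library. The slopes of 7 were above 0 and none below, 11 were higher and 2 lower with shEVI1-2532, and 3 were higher and 3 lower with shEVI1-2531. CYBB, which encodes an oxidase of phagocytes, rose by 1.47 ± 0.15 (edgeR, adjusted p = 1.36e-05) with shEVI1-2532, PLAUR, the urokinase receptor, by 1.38 ± 0.16 (3.62e-05) and ANXA5 by 1.07 ± 0.13 (4.7e-05). CACYBP, which binds S100A6, was the partner called lower in the talazoparib effect (-0.69 ± 0.15, adjusted p = 0.0481). ANXA2, the partner of S100A10, was singled out after its values were seen: it stood at 190.2 and 156 CPM in NTC, 81.7 and 72.8 CPM with shEVI1-2531 and 312 and 137 CPM with shEVI1-2532, so that it was lower with the former (-0.98 ± 0.19, 0.00432) and higher with the latter (0.59 ± 0.19, 0.0275).

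Of 9 transcription factors known to act on S100A8, S100A9 or S100A12 in myeloid cells, 7 had a slope above 0 and none below, and 7 were higher and 1 (HIF1A) lower with shEVI1-2532. With shEVI1-2532, KLF4 rose by 3.37 ± 0.35 (edgeR, adjusted p = 1.58e-05) from 0.240 and 0.513 CPM in NTC, CEBPD by 1.74 ± 0.15 (3.98e-06), CEBPB by 1.62 ± 0.15 (6.68e-06) and SPI1, which encodes PU.1, by 1.00 ± 0.13 (6.22e-05). CEBPB was the only one called in the talazoparib effect, at 0.97 ± 0.22 (adjusted p = 0.0497). With shEVI1-2531, 6 of the 9 were higher and none lower.

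Most markers of mature monocytes also rose with time under the inhibitors, relative to DMSO, and were higher with either shRNA. Of 10 monocyte markers, 7 had a slope above 0 with the inhibitors, 8 were higher with shEVI1-2532 and 6 with shEVI1-2531, and none passed in the other direction in these tests. Their summed level was 514 to 656 CPM over the DMSO libraries, 552 to 2213 with olaparib, 653 to 4021 with talazoparib, 386 to 524 in NTC, 1265 to 1397 with shEVI1-2531 and 4428 to 5923 with shEVI1-2532. LYZ, lysozyme, led the sum, with 206 and 183 CPM in NTC and 3913 and 5230 CPM with shEVI1-2532, while CD68 did not exceed 0.249 CPM in any library. CSF1R and VCAN, singled out after their values were seen, were the markers not called with shEVI1-2532. CSF1R, the receptor for M-CSF, stood at 241 CPM with DMSO at 48 h, 161 with olaparib and 158 with talazoparib (slope -0.32 ± 0.13, edgeR, adjusted p = 0.148), and at 128 and 269.7 CPM in NTC, 93.1 and 189.5 with shEVI1-2531 and 190.3 and 178 with shEVI1-2532. VCAN, versican, had a slope of 0.87 ± 0.14 (5.49e-08) but stood at 5.11 and 7.06 CPM in NTC, 2.596 and 7.11 with shEVI1-2531 and 2.56 and 10.8 with shEVI1-2532. Of 10 granulocyte markers, the secondary granule genes LTF, LCN2 and MMP8 were at or under 0.199 CPM in every library. In this list 3 slopes were above 0 and 2 below, and 6 genes were higher with shEVI1-2532, among them PRTN3, AZU1, ELANE and CSF3R, with 2 higher and 1 lower with shEVI1-2531. The summed level was 1537 to 2765 CPM with DMSO, 1189 to 1634 with olaparib and 936 to 1708 with talazoparib. It was 3558 to 3775 in NTC, 3392 to 5514 with shEVI1-2531 and 2967 to 4729 with shEVI1-2532. MPO, singled out after its values were seen, led the sum. At 48 h it stood at 2528 CPM with DMSO, 907 with olaparib and 513 with talazoparib. In the knockdown it was 3490 and 3234 CPM in NTC, 3161 and 5097 with shEVI1-2531 and 1677 and 2732 with shEVI1-2532. Of 8 stem and progenitor markers, 4 slopes were below 0 and 6 genes were lower with shEVI1-2532, with 6 lower and 1 higher with shEVI1-2531, CD34 standing at 303 and 765 CPM in NTC and at 4.02 and 3.37 CPM with shEVI1-2532. Their part in the S100 values was not tested.

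The other marker lists moved less uniformly in the knockdown. With the inhibitors, 3 of the 4 dendritic cell markers tested had a slope above 0 and none below. Their median slope was 1.00, near the 1.01 of the monocyte markers. Of 3 megakaryocyte and platelet markers tested 1 had a slope above 0, and no lymphoid slope passed. With shEVI1-2532, 2 of 6 dendritic cell markers were higher and 2 lower, 2 of 5 megakaryocyte and platelet markers were lower, 2 of 5 lymphoid markers were lower, and no erythroid marker had enough counts to be tested. Of 9 epithelial markers, which the bladder line behind the conditioned medium could bring, KRT17 stood at 86.7 to 987 CPM, with a slope of 1.07 ± 0.13 (edgeR, adjusted p = 5.47e-13), and was higher with both shRNAs (1.96 ± 0.19 with shEVI1-2532, 9.09e-06). KRT7 stood at 0.932 to 13.8 CPM, highest in NTC with 6.64 and 13.8 CPM, and was lower with both shRNAs. KRT13 reached 0.299 CPM and UPK2 0.169 CPM, CDH1, EPCAM and TP63 stayed at or under 0.0536 CPM, and KRT5 and UPK1B had no count in any library. The summed level of the 9 markers, nearly all of it KRT17, was 118 to 150.03 CPM over the DMSO libraries, 176 to 816 with olaparib, 172 to 863 with talazoparib, 282 to 324 in NTC, 604 to 945 with shEVI1-2531 and 864 to 989 with shEVI1-2532. The part of these genes in the S100 values was not tested.

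The untreated cells held the myeloid precursor genes MPO and KIT and the progenitor marker CD34 at 2808, 60.2 and 527 CPM, while MS4A1, a B cell marker, had no count in any library. Library totals were 55999673 to 72681943 counts in the PARPi experiment and 95523038 to 120716213 in the knockdown. Mitochondrial genes took 1.78% to 3.37% of counts in the former and 2.49% to 4.21% in the latter. The shares were highest in the shEVI1-2532 libraries, at 3.996% and 4.21% against 2.49% and 3.40% in NTC, and their part in the S100 values was not tested. In S100A8 and S100A9, NTC of day 3 stood 0.77 and 0.55 log2 units above NTC of day 6, which is more than the shEVI1-2531 effect on S100A8. NTC of day 3 was also 0.79 above DMSO at 48 h for S100A8, and NTC of day 6 0.03 above it.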

How the data were processed

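RNA-Seq libraries were prepared from MUTZ-3 cells with a stranded mRNA kit and deposited as 1 table per library. The authors deposited raw read counts per gene, from STAR and featureCounts per the labels, on GRCh38; the authors also deposited TPM, which equal the counts over the whole gene span and were used only as a check. Versions, annotation release and strand setting are not given in the sources used here. The shRNA names are those of the labels, which differ from the file names for shEVI1-2531. Genes reaching 10 counts in 3 or more of 9 time course libraries, or in 2 or more of 6 knockdown libraries, were normalized with TMM and tested with edgeR 4.0.16 in R 4.3.3 (quasi-likelihood, hour or day as block, 4 and 2 residual degrees of freedom), with Benjamini-Hochberg adjustment over all genes tested. With 1 library per condition, errors measure how far the effect of an arm differs between times, moderated over all genes. In the slope model they measure departure from a line on the log2 of hours. Neither is variation between replicates. The untreated library entered no test. Alternatives used DESeq2 1.42.0 and limma 3.58.1. Steps were tested on simulated data. Named beside the members were all other S100 genes, and from each list up to 4 genes with the smallest p in the talazoparib or shEVI1-2532 effect among those called, 1 of which is not reported here. Members and lists were chosen with earlier results of these data known. Sequences are from RefSeq (GRCh38.p14).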

Additional observations from a re-analysis of the deposited data

Results flagged for a closer look

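The effects of the shRNAs differed, by the direct edgeR test at an adjusted p under 0.05, for 7 members and 2 other S100 genes. On the log2 scale shEVI1-2532 minus shEVI1-2531 was 1.99 for S100A6, 1.81 for S100A12, 1.56 for S100A8, 1.53 for S100A9, 1.46 for S100P, 0.84 for S100A4, 0.60 for S100A11, 2.27 for S100A5 and -0.82 for S100B. S100A6 and S100P were called in opposite directions by the shRNAs, as was S100A5. Among these genes S100B alone was lower with shEVI1-2532 than with shEVI1-2531.

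The inhibitor effect differed between times, by the slope test, for 6 members and S100B, the mean slope per doubling of hours being 1.88 for S100A12, 1.66 for S100A8, 1.61 for S100A9, 1.01 for S100P, 1.00 for S100B, 0.87 for S100A6 and 0.57 for S100A11.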

How the results depend on the processing

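The count of members called higher for the mean PARPi effect was 0 as reported, where 3.16% of all genes were called higher. It became 6 without a filter on low counts, 6 without the 12 h time point (12.4% of genes) and 4 with DESeq2 (10.7%). With limma voom it was 1 (7.75%) and without 48 h 3. With 1 library left out it was 0 to 6, while 6 to 2527 of all genes were called higher. For talazoparib, 0 (3% of genes) became 6, 6, 4, 1 and 2 under the same changes (no filter, without 12 h, DESeq2, voom, without 48 h). The share of genes was 11.4% with DESeq2 and 8.01% with voom. With 1 library left out it was 0 to 6, against 0 to 2700 of all genes. For olaparib the count became 3 with no filter and 3 without 12 h. With 1 library left out it was 0 to 3, against 0 to 1325 of all genes. The slope test called 6 members higher under every alternative with 2 exceptions, 7 with hours on a linear scale and 7 without olaparib at 12 h, where S100A4 passed. Without the day as a replicate block, shEVI1-2531 called 0 members higher and 0 lower in place of 3 and 3, shEVI1-2532 called 5 in place of 6, and the difference between shRNAs 4 in place of 7. With both shRNAs as 1 group, none was called (0 higher and 0 lower), S100A6 standing at 0.64 and S100P at 0.23, against their fall with shEVI1-2531. With 1 library left out, shEVI1-2531 called 2 to 3 higher and 1 to 3 lower. For no filter, without 48 h, without the day block and with pooled shRNAs, the share over all genes is not given here. Those counts are therefore not read as a result about the members. The cause was not tested.

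Reversed signs came from members that had not passed, apart from the pooled shRNAs. S100A4 was -0.051 for the mean PARPi effect and -0.18 for olaparib without 48 h, and -0.028 for olaparib by library totals. With 1 library left out, S100A4 ranged from -0.061 to 0.28 for the mean effect, from -0.19 to 0.16 for olaparib and from -0.21 to 0.094 with shEVI1-2532. S100A10 ranged from -0.90 to 0.45 with shEVI1-2532, from -0.27 to 1.07 for the difference between shRNAs and from -0.35 to 0.0047 for talazoparib minus olaparib. The latter difference ranged from -0.098 to 0.94 for S100A8, from -0.21 to 0.86 for S100A9 and from -0.34 to 0.91 for S100A12, below 0 without talazoparib at 48 h.

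Of 80 single-library ratios of the members, 55 had an interval wholly above 0, 13 wholly below and 12 held 0, against 28.5% above and 45% below over the 14149 genes with at least 10 counts in every library. With the mean of all controls as denominator, S100A9 with talazoparib at 12 h was -0.072, S100A10 with olaparib at 48 h -1.58 and S100A4 with shEVI1-2532 at day 3 0.031, and after TMM the last was 0.10. Of the 24 genes named as most like a member, 4 were named again from the 10 ratios to controls and 9 by Spearman correlation. Scaling to library totals changed the split over all genes from 3942 higher and 3706 lower to 2360 and 5957 with shEVI1-2532, from 1765 and 1470 to 1049 and 2270 with shEVI1-2531, from 2271 and 2234 to 1524 and 3000 for their difference, and from 1404 and 1431 to 864 and 1971 for the slope. DESeq2 called 1835 and 1639 genes for the mean PARPi effect against 544 and 174, and limma voom 1335 and 458.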
